A study of Mus musculus with 2 samples.

Results

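Type I interferon signature genes were followed here as a set of 34 listed members, the transcripts that cells of mice and other mammals make in quantity after type I interferon binds its receptor. They were chosen by gene symbol, with no measured value in the rule, and 33 of the 34 were among the 32285 genes of the deposited tables. Mx1, a dynamin-like antiviral GTPase, was not analysed here. The members were read in tumour-infiltrating regulatory T cells (Tregs, which carry the transcription factor Foxp3 and hold immune responses in check) and in other cells of the same libraries. Droplet single-cell RNA sequencing gave 1 library for each of 2 groups of C57BL/6 mice, aged 8 to 12 weeks. The WT library had the genotype JMJD1CWT, and the cKO library had JMJD1CTregcKO, a deletion in Tregs of Jmjd1c, which encodes a member of the JmjC-domain family of histone demethylases. The labels used here state no tumour model, no driver of the deletion, no deleted exons, and neither the number nor the sex of the animals. The study's comparison is between these libraries, so no difference below has a replicate check and no p-value is given. All intervals are 95% intervals and cover counting error only.

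Type I interferons (the alpha subtypes and interferon beta) act through the receptor chains Ifnar1 and Ifnar2, which signal through the kinases Jak1 and Tyk2. Stat2 and Irf9 belong to a complex that is then formed and binds the interferon-stimulated response element in front of these genes. Their products sense viral nucleic acid, block translation and replication of viruses, tag proteins with Isg15, or feed back on the signal, and many are also induced by interferon gamma. In tumours, T cells can receive interferon made by dendritic cells, macrophages and tumour cells.

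In Tregs, the members together took 0.634% of UMIs (unique molecular identifiers, 1 per captured transcript) in WT and 0.832% in cKO, a ratio of 1.31 (1.30 to 1.32). The members did not share a direction. Isg15 was 2.30-fold higher in cKO, Zbp1 and Irf7 were about 1.5-fold higher, and Ifi44, Slfn5, Ifi208 and Ddx60 were lower. Cells with a moderate number of members were more frequent in cKO, while cells with very many members were rarer. Most members were lower in cKO when Tregs without granzyme B (Gzmb) transcripts, or Tregs with them, were compared between libraries. Tregs with Gzmb were far more frequent in cKO, and in both libraries nearly all members were higher in them than in Tregs without it.

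The response element is shown first for members that went apart although they are close in family and place. A core of this element, GAAANNGAAA or TTTCNNTTTC on the opposite strand, was searched in RefSeq windows of 300 bases around each start (250 before and 50 after, build GRCm38.p6). It was found in 16 of the 26 members that had a window (61.5%), against 3.99% of all 27025 genes in the table and 3.44% of its 32851 windows. The 160 bases before the start are printed 5′ to 3′ on the gene's own strand with the matched letters in capitals. Ifit1 (chr19:34640729-34640888, plus strand) and Ifit3 (chr19:34583369-34583528, plus strand) hold the same pair of matched letters, TTTCACTTTC and TTTCAGTTTC, and Ifit1 stood higher and Ifit3 lower in cKO Tregs:
Ifit1: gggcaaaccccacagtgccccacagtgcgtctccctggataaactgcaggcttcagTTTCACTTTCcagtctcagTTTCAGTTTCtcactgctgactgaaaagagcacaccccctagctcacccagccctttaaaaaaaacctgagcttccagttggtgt
Ifit3: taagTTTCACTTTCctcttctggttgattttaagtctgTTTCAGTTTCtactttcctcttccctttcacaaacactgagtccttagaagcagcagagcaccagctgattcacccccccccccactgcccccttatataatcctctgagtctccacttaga
Ifi208 (chr1:173673505-173673664, plus strand) and Ifi214 (chr1:173535958-173536117, minus strand) share 1 match, GAAATCGAAA, and the former stood lower and the latter higher:
Ifi208: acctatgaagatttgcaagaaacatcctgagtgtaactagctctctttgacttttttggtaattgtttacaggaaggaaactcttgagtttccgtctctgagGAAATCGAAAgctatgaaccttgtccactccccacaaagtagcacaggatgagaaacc
Ifi214: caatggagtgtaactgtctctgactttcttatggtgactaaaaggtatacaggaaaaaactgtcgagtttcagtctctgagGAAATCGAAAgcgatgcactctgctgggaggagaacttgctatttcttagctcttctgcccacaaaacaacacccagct
Isg15 (chr4:156200819-156200978, minus strand), the member with the highest ratio, holds 3 matches that run into each other, at 78, 72 and 66 bases before the start. Ddx60 (chr8:61927927-61928086, plus strand), among the lowest, holds 2, at 53 and 19 bases before it:
Isg15: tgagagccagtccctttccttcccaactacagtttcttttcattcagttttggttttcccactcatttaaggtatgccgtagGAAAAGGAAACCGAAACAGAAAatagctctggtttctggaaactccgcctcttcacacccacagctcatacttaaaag
Ddx60: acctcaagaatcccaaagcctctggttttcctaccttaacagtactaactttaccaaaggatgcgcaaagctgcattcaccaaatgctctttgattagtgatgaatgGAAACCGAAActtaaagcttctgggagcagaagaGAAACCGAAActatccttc
The motif was thus present on both sides of the comparison. Of the 5 members at least 1.5-fold apart in Tregs, 4 held it (Isg15, Ddx60, Ifi208 and Slfn5) and Ifi44 did not. No match was found for Ifit2, Herc6, Isg20, Cmpk2, Oasl1, Oasl2, Irf7, Irf9, Ifi44 and Xaf1, and no window was on hand for Usp18, Dhx58, Zbp1, Parp14, Parp9, Ifi27l2a and Rtp4. A match is a description of letters and not a binding site.

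The WT table held 3905 cell barcodes and 49063944 UMIs and for cKO there were 4105 barcodes and 37666195 UMIs, and the libraries had 2 barcodes in common. After filtering, 3842 WT and 4026 cKO cells remained, with medians of 9088 and 6953 UMIs. Classes were set by UMI counts of marker genes. Tregs (at least 1 UMI of Cd3e or Cd3g, at least 6 of Foxp3, Il2ra, Ikzf2 and Ctla4 together, at most 1 of Cd8a and Cd8b1 and at most 2 of Lyz2 and C1qa) were 84.3% of WT and 70.4% of cKO cells, 3240 and 2834 cells. Cells with at least 3 Cd8a or Cd8b1 UMIs numbered 213 and 407, and myeloid cells (at least 10 UMIs of Lyz2 and C1qa) numbered 103 and 321. Median UMIs in WT were 8546 in Tregs, 18131 in the Cd8 class and 20622 in the myeloid class. In cKO they were 6427, 10688 and 13633. The part of droplets with more than 1 cell in these depths was not tested. The Cd8 class was mixed: 180 of the 213 WT and 198 of the 407 cKO cells also reached the Treg marker sum, and 19 and 8 held a UMI of Siglech, a plasmacytoid dendritic cell gene. It is therefore called Cd8-positive cells. The myeloid class was mixed as well: 51 of the 103 WT and 72 of the 321 cKO cells reached the Treg marker sum, and 41 and 218 had no UMI of Cd3e or Cd3g. Xist was found in 97.1% of WT and 0.273% of cKO cells, and Y-linked transcripts in 0 WT cells (an upper limit of 0.096% for cells with a captured UMI) and 74.6% of cKO cells, so sex and genotype cannot be told apart in any value below. Jmjd1c itself stood at 88.6 CPM (UMI counts brought to the same total in each class and library) in WT against 74.1 CPM in cKO Tregs, a log2 ratio of -0.24; tags from transcript 3′ ends do not check a deletion whose exons are not given.

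The members that carry the signal were all higher in cKO Tregs. Log2 ratios here are log2 of (CPM in cKO + 5) over (CPM in WT + 5), which understates the difference of low genes, and a member counts as apart at 1.5-fold, a log2 ratio of 0.58. Stat2, a DNA-binding subunit of the interferon-activated complex, was 23.0 CPM (21.5 to 24.6) in WT against 32.3 CPM (30.0 to 34.7) in cKO, a log2 ratio of 0.41. Irf9, the subunit that recognises the response element, was 52.7 and 69.3 CPM (log2 ratio 0.36). Irf7, which amplifies interferon production, was 97.5 CPM (94.4 to 101) and 147 CPM (143 to 152), a log2 ratio of 0.57, just short of 1.5-fold on this scale. The ratio interval lay wholly above 1 for all 3 of these genes. It did so for 31.4% of all genes, and lay wholly below 1 for 35.6%.

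The Isg15 group held the member with the highest ratio. Isg15 (ENSMUSG00000035692, chr4:156199424-156200818, minus strand), a ubiquitin-like protein that is attached to other proteins and also secreted, was 236 CPM (232 to 241; 9015 UMIs) in WT against 544 CPM (535 to 554; 12816 UMIs) in cKO. Its log2 ratio of 1.19 ranked 58 from the top among the 8678 genes tested, those whose mean over the libraries reached 5 CPM. It was the only 1 of the 33 members at least 1.5-fold higher in cKO Tregs (3.03%), where 4.21% of all genes tested were. Usp18, the protease that removes Isg15 and also dampens the receptor, was 33.7 and 37.2 CPM (log2 ratio 0.13). Herc6, the mouse ligase that attaches Isg15, was 39.4 and 39.6 CPM (log2 ratio 0.00). Over all Tregs the Isg15 transcript was thus more than doubled in level, while the Usp18 and Herc6 transcripts were within 1.11-fold of WT. No other enzyme of this tag is given here, and these are RNA and not protein levels.

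The Ifit genes, whose proteins bind foreign RNA and block its translation, went in opposite directions although they lie side by side on chromosome 19. Ifit1 was 97.6 CPM (94.5 to 101) in WT against 120 CPM (115 to 124) in cKO, a log2 ratio of 0.28. Ifit3 was 66.2 CPM (63.6 to 68.8) and 43.5 CPM (40.8 to 46.2), a log2 ratio of -0.55. Ifit2 was 14.4 and 9.26 CPM (log2 ratio -0.44), and Ifit3b was 13.9 and 10.7 CPM (log2 ratio -0.27). Ifit3 and Ifit3b are near-identical copies, and reads that fit both may have been dropped or split, so their levels are uncertain.

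Effectors that act on nucleotides and RNA stood on both sides. Isg20, an exonuclease that degrades RNA, was 275 CPM (270 to 281) in WT against 325 CPM (317 to 332) in cKO (log2 ratio 0.23). Oas3, which makes the short oligoadenylates that switch on RNase L, was 25.9 CPM (24.3 to 27.6) and 15.6 CPM (14.1 to 17.3), a log2 ratio of -0.58, just short of 1.5-fold. The Oas-like genes Oasl1 and Oasl2 had log2 ratios of 0.13 and 0.19. Rsad2 (viperin, which makes a chain-terminating nucleotide) and its neighbour Cmpk2, a mitochondrial nucleotide kinase, had log2 ratios of -0.07 and 0.00, and their ratio intervals, like that of Oasl1, spanned 1.

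Sensors of nucleic acid stood on both sides. Of 7, 2 were at least 1.5-fold lower and none higher (4.04% and 4.21% of all genes), and 4 had a ratio interval wholly below 1 and 2 wholly above (35.6% and 31.4% of all genes). Ddx60 (ENSMUSG00000037921, chr8:61928087-62038244, plus strand), a helicase that aids RNA sensing, was 27.6 CPM (26.0 to 29.3; 1052 UMIs) in WT against 15.6 CPM (14.1 to 17.3; 368 UMIs) in cKO, a log2 ratio of -0.66. Ifi208 (ENSMUSG00000066677, chr1:173673675-173698395, plus strand), of the PYHIN family of DNA-binding proteins, was 20.2 CPM (18.8 to 21.7; 770 UMIs) and 10.7 CPM (9.38 to 12.1; 251 UMIs), a log2 ratio of -0.69. Its relative Ifi214 was 20.1 and 25.3 CPM (log2 ratio 0.27), and the treatment of reads shared within this gene family is not known here. The RNA sensors Ifih1 (MDA5) and Ddx58 (RIG-I) had log2 ratios of -0.32 and -0.27, and Dhx58 (LGP2), which tunes both, had -0.07. Zbp1, a sensor of Z-form nucleic acid that can trigger cell death, was higher in cKO, as Ifi214 was. Zbp1 was 135 CPM (132 to 139) in WT against 204 CPM (199 to 210) in cKO, a log2 ratio of 0.58, just under the bound of 1.5-fold.

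The remaining members included the one with the most UMIs and the one with the lowest ratio. Ifi27l2a (ENSMUSG00000079017, chr12:103442167-103443680, minus strand), a small hydrophobic protein, alone made up 64.3% of all member UMIs in WT Tregs and 66.6% in cKO, and so sets the summed value. It was 4080 CPM (4060 to 4100) in WT against 5540 CPM (5510 to 5570) in cKO, a log2 ratio of 0.44. Bst2 (tetherin), which holds budding virus at the membrane, was 391 CPM (385 to 397) and 377 CPM (369 to 385), a log2 ratio of -0.05. Phf11b was 110 CPM (107 to 113) and 146 CPM (141 to 151), a log2 ratio of 0.39. Ifi44 (ENSMUSG00000028037, chr3:151730922-151749960, minus strand), a protein with a GTP-binding motif, had the lowest ratio of the set: 16.8 CPM (15.5 to 18.1; 640 UMIs) in WT against 5.40 CPM (4.50 to 6.42; 127 UMIs) in cKO, a log2 ratio of -1.07. Slfn5 (ENSMUSG00000054404, chr11:82951349-82964840, plus strand), of the Schlafen family, was 47.2 CPM (45.0 to 49.4; 1798 UMIs) and 24.8 CPM (22.8 to 26.9; 583 UMIs), a log2 ratio of -0.81. Parp14, Rtp4, Trim30a and Xaf1 had log2 ratios of 0.32, 0.35, 0.28 and 0.22, and Parp9 had -0.02.

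In all, 4 of 33 members (12.1%) were at least 1.5-fold lower in cKO Tregs (Ifi44, Slfn5, Ifi208 and Ddx60), where 4.04% of all genes tested were. By sign, 18 members were higher and 15 lower, where 46.9% of all genes were higher. The median log2 ratio was 0.13 against -0.02 over all genes. The ratio interval lay wholly above 1 for 16 members (31.4% of all genes) and wholly below 1 for 11 (35.6% of all genes). At this depth most genes have an interval off 1, so these counts describe the libraries and do not set the members apart. The median lost its sign when the deepest 5% of cells were left out (-0.043) and when Tregs were chosen after thinning (-0.034), so the set as a whole had no steady sign.

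**Figure D1:**
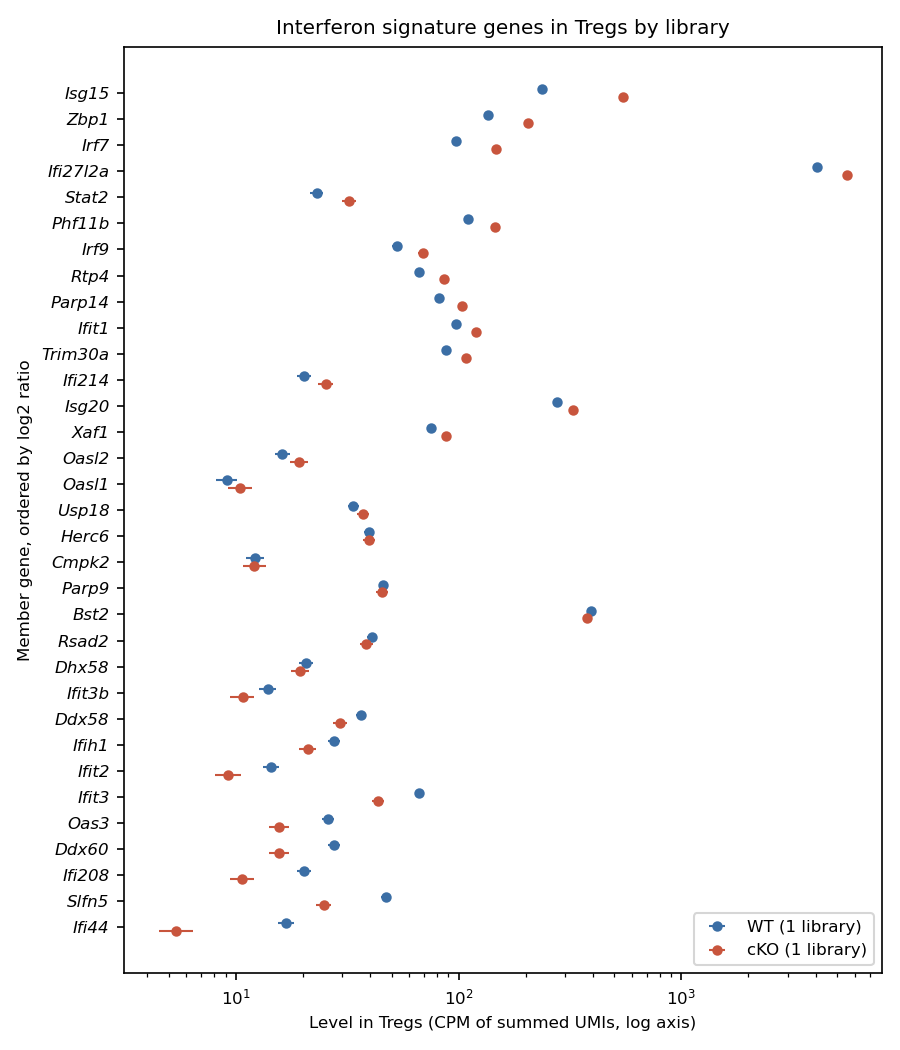
Level of each of the 33 members in Tregs, in CPM of summed UMIs on a log axis, for the WT (blue) and cKO (red) library; points are levels and bars their exact Poisson 95% intervals. Isg15 stands to the right in cKO (236 against 544 CPM), the rows at the bottom stand to the left (Ifi44, 16.8 against 5.40 CPM), and Ifi27l2a lies far from the rest.

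The upstream pathway was read from lists of other genes. Among 21 interferon ligands, 18 had 0 UMIs in the Tregs of both libraries, and Ifng, the T cell product interferon gamma, was the only 1 at a mean of 5 CPM or more: 18.7 CPM in WT and 40.4 CPM in cKO (log2 ratio 0.94). Receptor chains and signal proteins were all measurable, and 12 of 13 had a ratio interval wholly above 1 (31.4% of all genes), with none wholly below (35.6%), while 1 of the 13 passed 1.5-fold. Ifnar1 was 92.7 and 133 CPM (log2 ratio 0.50) and Ifnar2 79.2 and 101 CPM (log2 ratio 0.34). The kinases Jak1 and Tyk2 had log2 ratios of 0.04 and 0.23. Irf1, a transcription factor that responds strongly to interferon gamma, was the only one of this list past 1.5-fold, at 83.5 and 173 CPM (log2 ratio 1.01), followed by Ifngr2 (0.58), Irf8 (0.55) and Irf5 (0.51).

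Feedback inhibitors included the highest ratio of the lists. Of 9 negative regulators at a mean of 5 CPM or more, 5 had a ratio interval above 1 and 1 below (31.4% and 35.6% of all genes). Past 1.5-fold, 3 were higher and none lower (4.21% and 4.04% of all genes). The 3 were Socs3 (57.6 CPM in WT and 220 CPM in cKO, log2 ratio 1.84), Socs1 (93.1 and 189 CPM, 0.99) and Samhd1 (241 and 391 CPM, 0.69). Samhd1 depletes nucleotides. Ptpn2, a phosphatase that acts on Jak and Stat proteins, had a log2 ratio of 0.31. Among the sensing genes, the adaptor Myd88 was 26.8 and 47.2 CPM (log2 ratio 0.71) and the kinase gene Ikbke had 0.54, while Cgas and Trim25 both had -0.17. Of 45 other interferon-induced genes at a mean of 5 CPM or more, 7 were past 1.5-fold higher (4.21% of all genes) and 0 lower (4.04%). Their median log2 ratio was 0.15. By interval, 26 lay above 1 (31.4% of all genes) and 11 below (35.6%). Their highest were Ms4a4b (1.59), the membrane antiviral genes Ifitm3 (1.17) and Ifitm1 (1.13), and Ly6a (1365 and 2733 CPM). Unlike the members, of which 4 were at least 1.5-fold lower, this list held none so low; the difference between the lists was not tested.

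Whether few Tregs or many carried the difference was read per cell. Each Treg was thinned to 4100 UMIs so that depth was equal, which left 3129 WT and 2468 cKO Tregs and left out 3.43% and 12.9% as too shallow. A WT Treg held a median of 5 detected members and a cKO Treg 6. Tregs with at least 5 members were 58.0% (56.3 to 59.8) of WT and 74.0% (72.2 to 75.7) of cKO, and those with at least 10 were 17.9% (16.6 to 19.3) and 21.2% (19.6 to 22.9). Without thinning the shares with at least 10 were 43.3% and 41.2%, at median depths of 8546 and 6427 UMIs.

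The upper end went the other way. At 12 members the shares met (12.7% and 12.9%), at 15 they were 7.99% in WT and 5.83% in cKO, and at 20 they were 3.80% (3.16 to 4.53; 119 cells) and 1.99% (1.47 to 2.62; 49 cells). The 95th percentile was 18 members in WT and 15 in cKO, while Tregs with at most 2 members were 11.8% and 5.43%. The distribution in cKO was therefore narrower at both ends, with fewer Tregs that held almost none and fewer that held very many. A number of members is a range and not a cell type: 19 WT and 15 cKO Tregs held 19 members and 18 and 9 held 20.

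**Figure D2:**
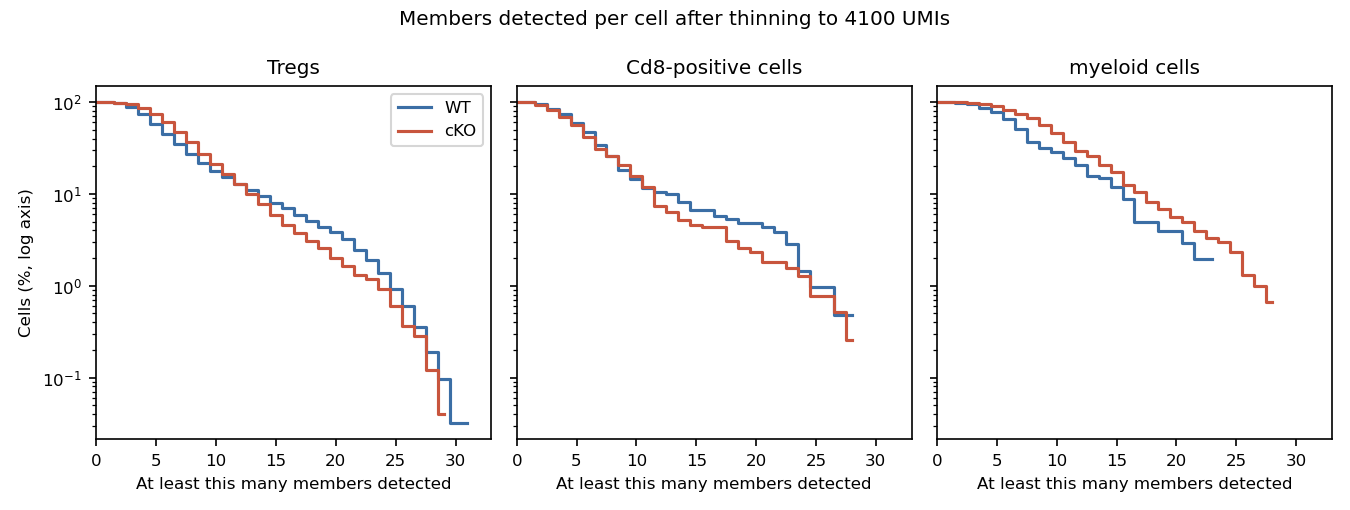
Share of cells (%, log axis) with at least the number of members on the horizontal axis detected, after thinning each cell to 4100 UMIs, for WT (blue) and cKO (red) in 3 classes. In Tregs the cKO line runs above WT at 5 to 10 members and crosses below it past 12, and in myeloid cells it stays above WT at each number from 2 members on that both lines reach.

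Members differed in how far a few cells held them. Tregs of each library were ranked by the number of other members detected, and the share of a member's UMIs in the highest 5% of cells (156 WT and 123 cKO Tregs) was taken. An even spread over equally deep cells would give 5%, and the share ran from 10.95% to 76.7% in WT and from 8.44% (Irf9) to 75.7% (Ifit3b) in cKO, so each of the 33 was more abundant in cells that held the others. Ifit3b (76.7% and 75.7%), Ifit3 (71.7% and 71.3%), Ifit1 (63.4% and 55.8%) and Rsad2 (57.7% and 58.1%) were held mainly by these cells. Ifi27l2a (10.95% and 9.60%), Irf9 (11.2% and 8.44%) and Bst2 (15.4% and 16.9%) were less held by these cells, and Ifi27l2a was detected in 98.3% of thinned WT and 98.4% of thinned cKO Tregs. The share held by the highest cells was lower in cKO for 27 of 33 members, with a median of 30.0% in WT and 24.0% in cKO. No such count was taken over all genes.

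Isg15 was spread over more Tregs in cKO. In WT, 42.7% (41.0 to 44.3) of its UMIs lay in the highest 5% of Tregs, and in cKO 29.6% (28.4 to 30.7). In the other 95% of Tregs it was 165 CPM in WT and 437 CPM in cKO (log2 ratio 1.38), and in the highest 5% it was 2334 and 3494 CPM (log2 ratio 0.58). The share of thinned Tregs with an Isg15 UMI was 34.04% (32.4 to 35.7) and 59.6% (57.6 to 61.5), against 51.1% and 71.2% without thinning. Zbp1 had the same form, with a log2 ratio of 0.71 outside the highest cells and 0.07 within them, and was detected in 35.0% and 48.7% of thinned Tregs.

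Slfn5, Ifi44, Ifi208 and Ddx60, the members at least 1.5-fold lower in cKO, were lower in both sets of cells. Slfn5 was 36.8 and 20.4 CPM outside the highest 5% (log2 ratio -0.72) and 436 and 123 CPM within it (log2 ratio -1.79). Ifi44 had log2 ratios of -1.12 and -1.71 and was detected in 4.99% (4.25 to 5.81) of thinned WT and 1.499% (1.06 to 2.06) of thinned cKO Tregs. Ddx60 had -0.78 in both. Ifit1, in contrast, was higher outside the highest cells (49.7 and 66.5 CPM, log2 ratio 0.39) and level within them (1639 and 1598 CPM, log2 ratio -0.04), while Ifit3 was lower in both (-0.65 and -0.84).

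Outside the highest cells, 19 members were higher and 14 lower in cKO, where 46.0% of all genes were higher. Within them, 11 were higher and 22 lower, where 52.4% of all genes were higher. For these shares over all genes, cells were ranked by all members. The log2 ratio was greater outside than within for 30 of 33 members, and the same share over all genes was not taken. In the highest 5%, 12 members had a ratio interval below 1 (6.44% of all genes) and 3 above (8.64%), and outside it 9 below (27.7%) and 15 above (24.4%). The ranking used the other members of the set, so these values describe the shape of the distribution and are no separate evidence that the libraries differ.

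**Figure D3:**
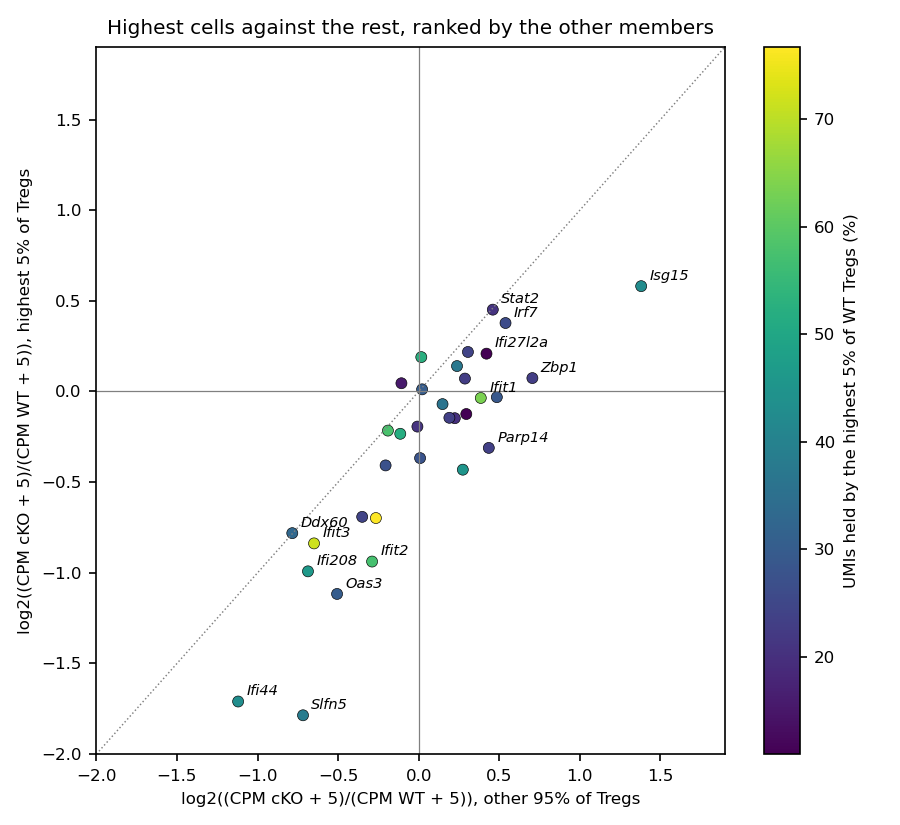
Each point is a member; the horizontal axis is its log2 ratio in the other 95% of Tregs, the vertical axis its log2 ratio in the highest 5% by the other members, and colour the percent of its WT UMIs held by the highest 5%. Points below the dotted line of equality (30 of 33) have a greater ratio outside the highest cells; Isg15 lies at 1.38 and 0.58, and Slfn5 at -0.72 and -1.79.

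The libraries also differed in Gzmb, the effector gene of granzyme B. This split was chosen after the data were seen. Among thinned Tregs, 31.9% of WT and 84.6% of cKO cells held a Gzmb UMI. Within each library the members were higher in Tregs with Gzmb than in those without: 33 of 33 in WT (median log2 ratio 0.56), where 52.2% of all genes were higher (median 0.01), and 32 of 33 in cKO (median 0.59), where 50.2% were (median 0.00089). At least 1.5-fold higher with Gzmb were 13 of 33 in WT (1.35% of all genes) and 17 of 33 in cKO (4.63% of all genes). Tregs with Gzmb still differed in its amount, with a mean of 7.70 UMIs in WT and 22.6 in cKO.

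Compared at the same Gzmb state, most members were lower in cKO. In Tregs without Gzmb (2130 and 380 cells), 25 of 33 members were lower in cKO, with a median log2 ratio of -0.39, where 51.5% of all genes were lower; 11 had a ratio interval below 1 (14.2% of all genes) and 4 above (14.9%), namely Isg15, Irf7, Parp14 and Ifi27l2a. In Tregs with Gzmb (999 and 2088 cells), 25 were again lower, with a median of -0.17, where 54.2% of all genes were lower; 17 had an interval below 1 (21.4% of all genes) and 5 above (18.3%), namely Isg15, Irf7, Stat2, Zbp1 and Ifi27l2a. Divided more finely, at 1 to 2, 3 to 9 and 10 or more Gzmb UMIs, the medians were -0.28, -0.48 and -0.44. Tregs with at least 20 members were a smaller share in cKO at each of the 4 levels, from few cells. Without Gzmb they were 2.68% (57 cells) in WT against 0.263% (1 cell) in cKO. At 1 to 2 UMIs they were 3.99% (18 cells) against 1.15% (3 cells), and at 3 to 9 UMIs 7.38% (24 cells) against 1.89% (9 cells). At 10 or more UMIs they were 8.97% (20 cells) against 2.67% (36 cells).

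Isg15 was higher in cKO on both sides of the split, at a smaller size, but not at the highest Gzmb level. It was 211 CPM in WT and 345 CPM in cKO without Gzmb (ratio 1.63, 1.48 to 1.80) and 404 and 634 CPM with it (ratio 1.57, 1.49 to 1.66). At 10 or more Gzmb UMIs, where 7.13% of WT and 54.7% of cKO Tregs lay, it was 652 and 687 CPM, a ratio of 1.05 (0.967 to 1.15) that spans 1. Ifi27l2a, at a ratio of 1.36 over all Tregs, had ratios of 1.15 (1.12 to 1.18) and 1.04 (1.02 to 1.05). In the finer levels it turned lower in cKO, at 0.842 (0.818 to 0.866) with 3 to 9 Gzmb UMIs and 0.875 (0.853 to 0.897) with 10 or more. Zbp1 was lower by sign at these 2 levels, at 0.965 (0.828 to 1.13) and 0.904 (0.793 to 1.04), intervals that span 1. There Irf7 had ratios of 1.02 (0.852 to 1.22) and 0.941 (0.802 to 1.11). Stat2 had 1.23 (0.822 to 1.85) and 1.42 (0.937 to 2.25), and these intervals also span 1. Ifi44 (ratios 0.200 and 0.247), Slfn5 (0.395 and 0.362), Ifi208 (0.306 and 0.346) and Ifit3 (0.408 and 0.344) were lower in cKO in both states. Ifit1, higher in cKO over all Tregs, was lower in both (0.682 and 0.787), as was Isg20 (0.645 and 0.902). Splits by Klf2 or S1pr1, genes of resting and recirculating T cells, and by Mki67 or Top2a, genes of dividing cells, left the median between -0.08 and 0.04. Whether Gzmb content accounts for the set's direction was not tested.

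**Figure D4:**
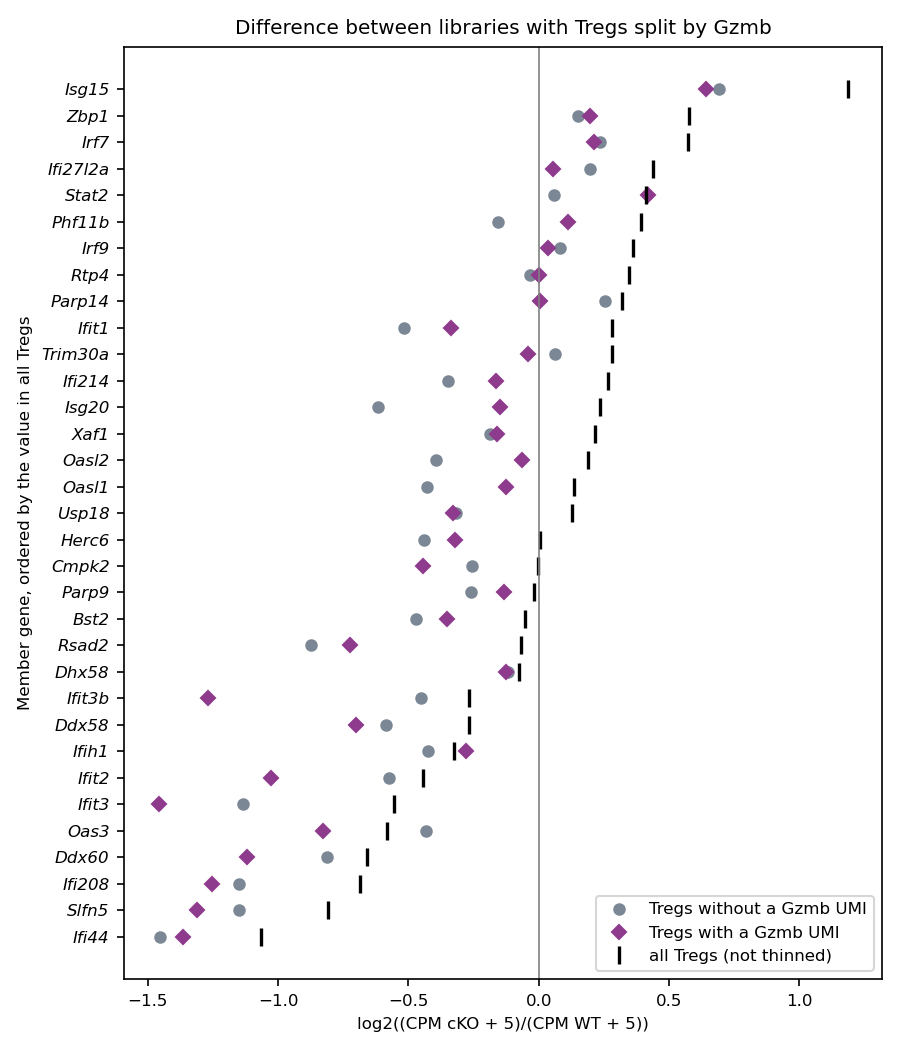
Log2 ratio (cKO over WT, on CPM + 5) of each member in thinned Tregs without a Gzmb UMI (grey circles) and with one (purple diamonds), beside the ratio in all Tregs without thinning (black bars). Both split values lie left of the black bar for all members but Oas3, Stat2 and Ifih1; 25 of 33 lie below 0 in each state, and Isg15 stays at 0.69 and 0.64.

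In the myeloid class, mixed with cells that reach the Treg marker sum as given above, the members were again higher in cKO as a sum. They stood at 6240 CPM in WT and 8576 CPM in cKO, a ratio of 1.37 (1.35 to 1.40). Here 6 of 33 members were at least 1.5-fold higher (4.29% of all genes) and 0 were lower (5.14%), and no p-value is attached to either count. Isg15 was 429 CPM (403 to 456) and 1072 CPM (1043 to 1102), a log2 ratio of 1.31, near its value in Tregs. The others past 1.5-fold were Irf7 (0.79), Oas3 (0.76), Stat2 (0.74), Zbp1 (0.68) and Oasl2 (0.61). In the 41 WT and 218 cKO myeloid cells without a Cd3 UMI, Isg15 had a log2 ratio of 1.17, while Zbp1 (0.51) and Oasl2 (0.52) no longer reached 1.5-fold. Herc6 (1.49), Ifi208 (0.70) and Ifi44 (0.69) were newly past 1.5-fold higher, from 12, 7 and 9 WT UMIs. The ratio intervals of Ifi208 and Ifi44 spanned 1. Ifit3b (-0.76) was newly past 1.5-fold lower. The part of cell makeup in this class was not tested. In the full class no Ifit gene was past 1.5-fold: Ifit1 was 122 and 100 CPM (log2 ratio -0.27) and Ifit2 72.0 and 49.4 CPM (-0.50). By sign 22 members were higher and 11 lower in the full class, where 47.8% of all genes were higher. The ratio interval lay above 1 for 16 members (14.2% of all genes) and below 1 for 3 (14.9%). The share of thinned cells with at least 10 members was 28.4% (19.9 to 38.2) in WT and 45.7% (40.0 to 51.5) in cKO.

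In Cd8-positive cells the sum was lower in cKO: 4680 CPM in WT and 4081 CPM in cKO, a ratio of 0.872 (0.856 to 0.889). At least 1.5-fold lower were 7 of 33 members (8.18% of all genes): Slfn5 (38.5 and 10.6 CPM, log2 ratio -1.48), Ifi44 (-1.42), Ddx60 (-0.87), Oasl1 (-0.70), Dhx58 (-0.70), Isg20 (-0.65) and Bst2 (-0.65). At least 1.5-fold higher were 2 (3.37% of all genes), Rtp4 (0.75) and Ifi214 (0.72), and ratio intervals lay below 1 for 13 (22.4%) and above 1 for 5 (15.8%). Isg15 was 219 and 279 CPM (log2 ratio 0.34). The makeup of this class moved with the library, as given above, and Siglech, the gene of a cell type known for making type I interferon, was 122.7 CPM in WT and 28.04 CPM in cKO. With a Cd3 UMI, no Siglech UMI and a Treg marker sum under 6, only 15 WT and 202 cKO cells were left. There the log2 ratio of the sum was -0.91, and 31 of 33 members were lower in cKO. The share of all genes lower in these cells was not taken, so this count does not set the members apart. The part of cell makeup in the difference of this class was not tested.

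Slfn5 and Ifi44 were thus past 1.5-fold lower in Tregs and in Cd8-positive cells and had log2 ratios of -0.27 and -0.10 in myeloid cells. Without a Cd3 UMI, myeloid cells had -0.30 (ratio 0.808, 0.672 to 0.977) and 0.69, the latter with a ratio interval that spans 1. Isg15, Zbp1 and Irf7 were higher by sign in all 3 classes. In the stricter Cd8 class of 15 WT cells, however, Isg15 (-0.40) and Zbp1 (-0.34) were lower by sign. Differences between classes were not tested. Myeloid transcripts in the Treg droplets moved with the library: summed over 10 myeloid markers, Tregs held 79.8 CPM in WT and 220 CPM in cKO, against 17664 and 20968 CPM in myeloid cells. Lyz2 and C1qa, 2 of these 10, are limited by the Treg rule itself. As a share of the myeloid level, the 10 ran from 0.060% (Lyz2) to 2.34% (Cd68) in WT Tregs and from 0.206% (Lyz2) to 3.997% (Cd68) in cKO Tregs. Siglech had 12 UMIs in WT Tregs and 0 in cKO Tregs. Leaving out Tregs with any UMI of 5 myeloid genes gave a log2 ratio of 1.26 for Isg15 and 0.42 for Ifi27l2a. No cell class that lacks these genes was at hand to set a background from free RNA.

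**Figure D5:**
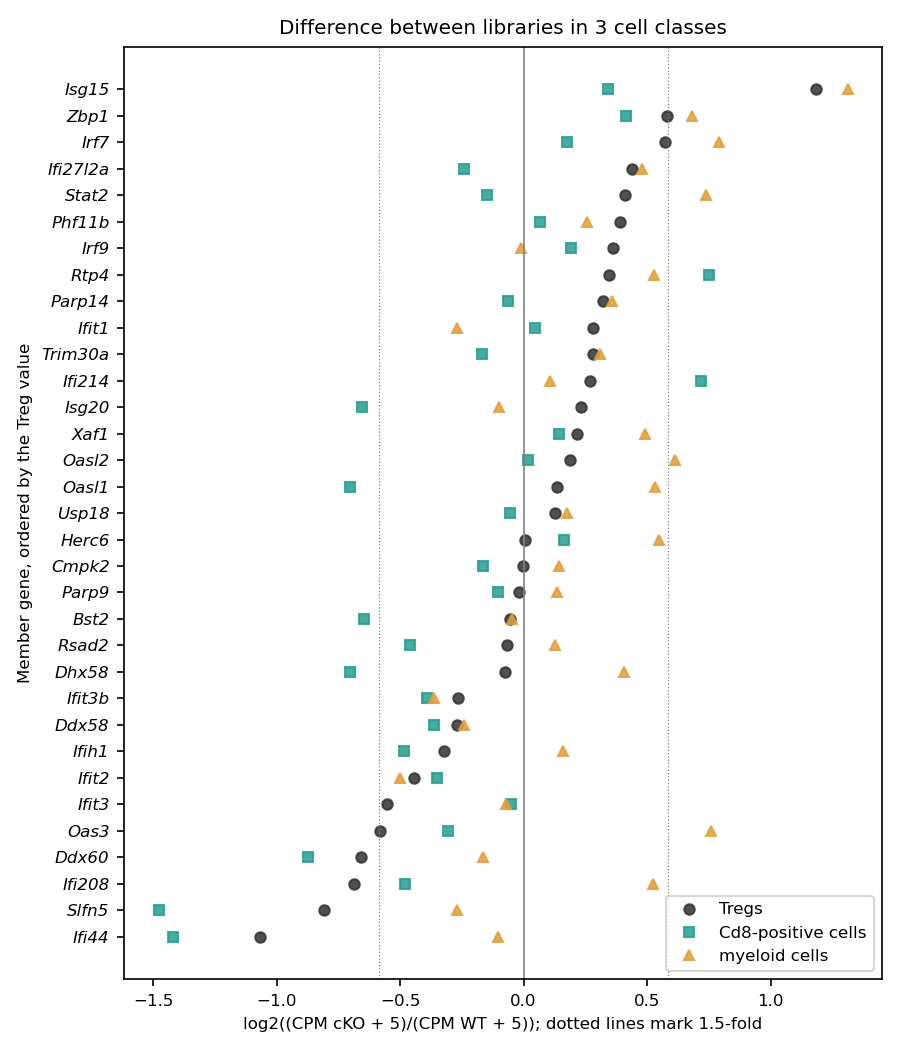
Log2 ratio (cKO over WT, on CPM + 5) of each member in Tregs (black circles), Cd8-positive cells (green squares) and myeloid cells (orange triangles), ordered by the Treg value; dotted lines mark 1.5-fold. Isg15 is at the top with 1.19, 0.34 and 1.31. Slfn5 and Ifi44 at the bottom are low in Tregs and Cd8-positive cells and less so in myeloid cells, where Slfn5 is at -0.27.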

How the data were processed

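Droplet 3′ libraries were made from Tregs enriched from digested tumours with magnetic beads and sorted by fluorescence, per the labels' protocols. The deposited matrices hold raw UMI counts per gene and barcode, which the authors made with Cell Ranger 5.0.1 on build mm10, per the submitters' processing notes. The sources used here do not give the annotation release, the use of intronic reads or any removal of doublets before deposit. Barcodes with at least 500 genes and under 10% mitochondrial UMIs were kept, and no doublet caller was run. UMIs were summed per class and library (Python 3.11.15, numpy 2.4.6, scipy 1.17.1). Levels have exact Poisson intervals, ratios exact conditional binomial intervals without the pseudocount of 5 CPM, and shares exact Clopper-Pearson intervals. Thinning drew UMIs without replacement, with a fixed seed. Gene coordinates come from GENCODE M21 (32158 of 32285 identifiers matched). The 33 members are all accounted for. Members at least 1.5-fold apart in Tregs and the 6 highest there are given in full, with up to 4 genes of each further list by absolute log2 ratio, plus the receptor, its kinases and Jmjd1c; 1 further gene under this rule is not reported here. The members, lists, classes and tests were chosen with earlier results of these data known. The ratio calculation was tested on simulated counts. Alternatives covered depth, cell filters, class rules, scaling, the pseudocount and the filter on low levels.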

Additional observations from a re-analysis of the deposited data

Results flagged for a closer look

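For 5 members the log2 ratio in another cell class had the opposite sign to that in Tregs, with a ratio interval off 1 in both classes. In none was the difference between classes tested, and with 1 library a group it has no replicate check. Against myeloid cells, Ifit1 had -0.27 (0.28 in Tregs), Oas3 0.76 (-0.58 in Tregs) and Ifi208 0.52 (-0.69 in Tregs), the last from 19 WT and 67 cKO UMIs. Against Cd8-positive cells, Isg20 had -0.65 (0.23 in Tregs) and Ifi27l2a -0.24 (0.44 in Tregs). In the latter class 180 of 213 WT and 198 of 407 cKO cells also reached the Treg marker sum, and the part of this in the values was not tested.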

How the results depend on the processing

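No paired analysis was possible because each group has 1 library, and for the same reason no library could be left out. Isg15, Zbp1 and Ifi27l2a were higher and Ifi44, Slfn5, Ifi208, Ddx60 and Bst2 lower in cKO Tregs under all 13 settings run for them. The values ran from 0.64 to 1.26 for Isg15 and from -1.48 to -1.05 for Ifi44. In the finer Gzmb levels of 3 to 9 and 10 or more UMIs, however, Ifi27l2a was lower in cKO. Zbp1 was lower by sign at both, with ratio intervals that span 1. The Gzmb split, the cuts at 15 and 20 members and the stricter classes were added after the data were seen. The cause of each change below was not tested.

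The count of members at least 1.5-fold higher in cKO Tregs, 1, became 2 with a Treg marker sum of 3 or with thinning, and 3 without myeloid UMIs, centred on all genes, or with a pseudocount of 1. The count lower, 4, was 5 or 6 under 8 other settings (6 with thinning, without dividing cells or with a pseudocount of 1). It became 2 with a minimum of 20 CPM (25 members tested), and 7 and 10 in Tregs without and with Gzmb. The median member log2 ratio, 0.13, became -0.043 without the deepest 5% of cells, -0.034 with Tregs chosen after thinning, and -0.39 and -0.17 without and with Gzmb. In those last Tregs Isg20 had -0.62 and -0.15, and Phf11b had -0.16 without Gzmb.

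The log2 ratio of summed members in Tregs, 0.39, was 0.35 without the deepest cells, 0.38 with Tregs chosen after thinning, 0.27 without dividing cells, 0.34 thinned, 0.41 centred, 0.31 as a mean over cells and 0.19 without Ifi27l2a, Isg15 and Bst2. Without and with Gzmb it was 0.071 and -0.0091. Outside the highest 5% of Tregs, 0.39 became 0.36 without dividing cells and 0.41 centred. In Cd8-positive cells, -0.20 became -0.092 without the top 3 members, -0.31 thinned, -0.16 centred, -0.31 as a mean over cells and -0.91 in the stricter class. In myeloid cells, 0.46 became 0.32, 0.52 and 0.49 without the top 3, thinned and as a mean over cells, 0.51 without the deepest cells and 0.34 in the stricter class. The share of Tregs with at least 10 members was 3.30 percentage points higher in cKO. The difference was 8.96 at 8 members, 0.27 at 12, -2.16 at 15, -1.82 at 20, -2.06 without thinning and 0.86 thinned to 3000 UMIs. Depth limits the low members: Oasl1, with the fewest Treg UMIs over both libraries together, had 346 in WT and 246 in cKO, and in cKO Ifi44 had 127.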
